A study of Mus musculus with 9 samples.

Results

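A set of 9 mouse genes with roles in olfactory receptor (OR) trafficking, OR transcription and the feedback that follows OR choice was examined: Rtp1, Rtp2, Reep1, Lhx2, Ldb1, Ebf1, Emx2, Kdm1a and Atf5. They were taken by symbol from a list of known regulators, and all 9 were found among the 23607 genes of the count tables. Levels were measured by pS6-IP followed by RNAseq, in which an antibody to phosphorylated ribosomal protein S6 pulls down ribosomes, with their mRNAs, from recently active cells. The olfactory epithelium (OE) of 9 C57BL/6 mice was used, with 3 mice in each of 3 groups. Control mice received distilled water, and the other groups received 1% or 100% heptanal, an aldehyde odorant, on filter paper for 1 hr, each mouse alone in a sealed container. Every group had 1 mouse at postnatal day 22, 1 at day 21 and 1 at day 18, and the methods state that the mice of a replication were littermates of the same sex. Day, litter and sex of the litter therefore cannot be told apart, and the day 22 libraries carry a different letter code in their labels from the other 6. No transgene or mutation is stated for any group. Totals ran from 5438494 to 9707592 counts per mouse with a median of 7305895. Precipitated RNA comes from a mixture of cells, so that more cells of a type, more RNA per cell and more precipitation per cell cannot be told apart.

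Each olfactory sensory neuron (OSN) expresses a single OR gene. Transcription factors such as LHX2, EBF1 and EMX2 bind OR promoters and enhancers, and the adaptor LDB1 links enhancers on different chromosomes into a hub. The histone demethylase LSD1, product of Kdm1a, permits the first OR allele to be activated. The OR protein made then triggers the PERK arm of the unfolded protein response, which favours translation of ATF5 and ends the search for further ORs. RTP1 and RTP2 carry ORs to the cell surface, and REEP1 promotes the surface expression of ORs in cultured cells.

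Promoter letters are shown for Rtp2 and Reep1, as examples of genes that were higher at 100% heptanal at all 3 ages and have a core match. The match is to the motif of the EBF (O/E) factors, a family with binding sites in many OR promoters. Rtp1, Lhx2 and Atf5 were also higher at all 3 ages. Lhx2 met both conditions, with the core in 1 of its 2 windows, but its letters are not shown. Rtp1 had no window and Atf5 no core match. The windows cover 250 bases before and 50 after the RefSeq start site on GRCm38.p6 and are written 5′ to 3′ on the strand of the gene, with the core CCCNNGGG in capitals. The Rtp2 window lies at chr16:23930745-23931044 on the minus strand, and the Reep1 window at chr6:71707431-71707730 on the plus strand. The whole Rtp2 window lies inside the GENCODE span of the gene, whose 5′ end at 23932394 is further upstream.
Rtp2: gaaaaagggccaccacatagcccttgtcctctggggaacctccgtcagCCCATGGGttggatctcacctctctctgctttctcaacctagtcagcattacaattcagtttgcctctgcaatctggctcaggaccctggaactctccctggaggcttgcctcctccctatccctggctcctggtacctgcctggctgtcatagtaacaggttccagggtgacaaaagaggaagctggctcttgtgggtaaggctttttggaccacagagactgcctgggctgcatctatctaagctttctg
Reep1: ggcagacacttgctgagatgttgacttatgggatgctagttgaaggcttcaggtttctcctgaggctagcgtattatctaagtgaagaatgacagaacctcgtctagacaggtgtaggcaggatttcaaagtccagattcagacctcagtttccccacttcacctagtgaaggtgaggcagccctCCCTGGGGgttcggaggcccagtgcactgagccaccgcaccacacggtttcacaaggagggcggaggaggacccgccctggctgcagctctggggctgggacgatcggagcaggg
The core begins 202 bases before the Rtp2 start and 65 bases before the Reep1 start, and it was also found in 1 window each of Lhx2 and Ldb1. It occurs on either strand in 13.7% of 32851 RefSeq promoter windows of the same length, and the longer form, with a T before and an A after the core, occurs in 0.904% and in none of the 13 windows found for 8 of the 9 genes. The homeodomain letters TAATTA (5.29% of windows) were found in the Emx2 window and TAATTG (8% of windows) in 2 Ldb1 windows. The CRE letters TGACGTCA (1.79%) and the AP-1 letters TGANTCA (7.81%) were in none of the 13 windows. The letters TGATGNAA (3.97%), a form of the element bound by ATF4 with a C/EBP partner, were in the Kdm1a window, and neither Atf5 window matched any of these motifs. A match is a run of letters and was not tested as a binding site.

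None of the 9 genes passed the test for heptanal at either concentration. The test was edgeR's quasi-likelihood test with postnatal day as a block, a threshold of 0.05 on p-values adjusted over the 14930 genes tested, and levels are in CPM, counts relative to TMM-scaled library size. All 9 genes passed the filter on low counts. At 100% heptanal against control, 0 of 9 genes were called (48 of all genes, 0.322%, all higher), while 3 of 9 had an unadjusted p under 0.05 (10.4% of all genes). At 1% heptanal against control, 0 of 9 were called (0 of all genes, 0%), and 0 of 9 had an unadjusted p under 0.05 (3.26% of all genes). Between 100% and 1% heptanal, 0 of 9 were called (12 of all genes, 0.0804%), and 4 of 9 had an unadjusted p under 0.05 (10.4% of all genes). With edgeR's likelihood ratio test or with DESeq2, 1 of 9 genes passed at 100% heptanal, which was Atf5, 1 of 9 passed between the concentrations, which was Reep1, and 0 of 9 passed at 1% heptanal. At 100% heptanal against the control littermate, 5 genes were higher on all 3 days (Rtp1, Rtp2, Reep1, Lhx2 and Atf5, against 18.4% of all genes), and 1, Kdm1a, was lower on all 3 days (18.1% of all genes). At 1% heptanal 2 genes, Lhx2 and Atf5, were higher on all 3 days (11.5% of all genes), and at 100% against 1% heptanal 3 genes were, Rtp1, Reep1 and Atf5 (16.9% of all genes). The groups did not overlap for Rtp2, Lhx2 and Atf5, which were higher in each 100% heptanal mouse than in any control (5.96% of all genes), and Atf5 was also higher in each of them than in any 1% mouse (4.74% of all genes). These comparisons share the control mice or the 100% heptanal mice.

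**Figure D1:**
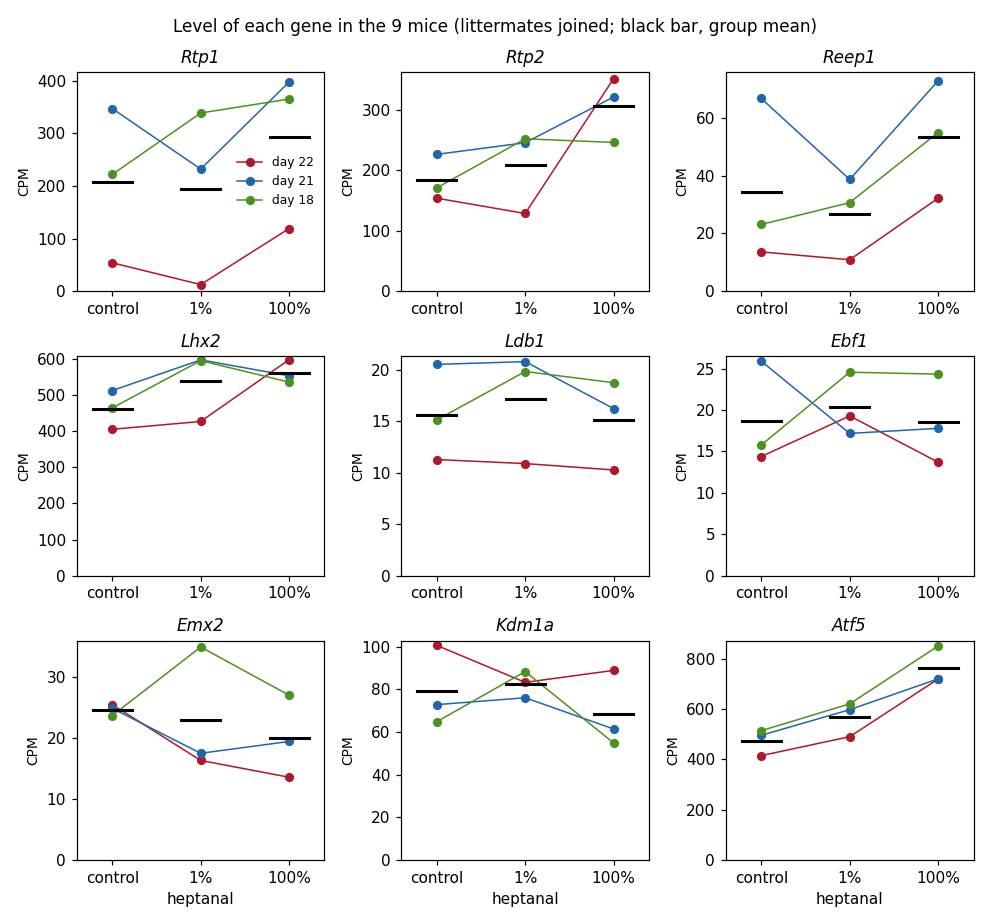
Level of each of the 9 genes in CPM (vertical axis, from 0) in control, 1% and 100% heptanal mice. Lines join littermates of 1 postnatal day and black bars are group means. Atf5 was higher at 1% than in controls and higher still at 100% on each day, while day 22 mice were lowest for Rtp1 and Reep1 in every group.

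Atf5, which encodes the transcription factor that stabilizes OR choice, had the smallest p of the 9 genes at 100% heptanal. The gene lies on the minus strand at chr7:44812256-44816658 (GRCm38). Atf5 was at 415, 496 and 514 CPM in the control mice of days 22, 21 and 18. It was at 490.5, 598 and 621 CPM at 1% heptanal and at 719.9, 721 and 851 CPM at 100% heptanal in the same order of days. The order of the groups was thus control, 1% and 100% on each of the 3 days, and the 100% mice did not overlap with either of the other groups. The share of all genes with this order was not computed. The fitted log2 fold change at 100% heptanal against control was 0.69 (SE 0.12), a 1.61-fold higher level, with an edgeR adjusted p of 0.0709 (unadjusted p = 0.000385). The within-day log2 ratios were 0.79, 0.54 and 0.73. At 1% heptanal the ratios were 0.24, 0.27 and 0.27, with a fitted log2 fold change of 0.26 (SE 0.12, edgeR adjusted p = 1.0, unadjusted p = 0.0643). Between 100% and 1% heptanal the fitted difference was 0.43 (SE 0.12, edgeR adjusted p = 0.323). With other models the Atf5 difference at 100% passed the threshold, with an adjusted p of 0.00436 by edgeR's likelihood ratio test and 0.000333 by DESeq2. Without the block its edgeR adjusted p was 0.734 at an almost equal log2 fold change of 0.69. Atf5 shares 82 exonic bases each with Nup62 and Il4i1 on the other strand, and since the counting is not stated to use strand, reads from those bases cannot be assigned.

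The 3 trafficking genes had larger fitted differences than Atf5 at 100% heptanal, with larger standard errors. Rtp1 and Rtp2 are members of 1 family and both lie on chromosome 16. They are at chr16:23429133-23433960 on the plus strand and chr16:23925548-23932394 on the minus strand, with 492 kb between them. Rtp2 was at 154, 227 and 171 CPM in the controls of days 22, 21 and 18, and at 129, 246 and 252 CPM at 1% heptanal. At 100% heptanal it was at 352, 322 and 246 CPM, above every control but overlapping with the 1% mice. Its log2 fold change at 100% against control was 0.77 (SE 0.25, edgeR adjusted p = 0.313, unadjusted p = 0.0122). Within days Rtp2 was 2.28-fold, 1.42-fold and 1.44-fold higher, so day 22 had the largest ratio, and without day 22 the fitted log2 fold change was 0.51.

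Rtp1 varied more between litters than between odour groups. It was at 54.0, 347 and 222 CPM in the controls of days 22, 21 and 18, and at 12.7, 232 and 338 CPM at 1% heptanal. At 100% heptanal Rtp1 was at 119, 397 and 365 CPM. The highest level on each day was that of the 100% mouse, yet the 100% mouse of day 22 lay below the controls of days 21 and 18. The log2 fold change was 0.73 (SE 0.48, edgeR adjusted p = 0.655) at 100% and -0.44 (SE 0.49, edgeR adjusted p = 1.0) at 1%. Without day 22 these were 0.42 and 0.01, so that the sign at 1% rested on the day 22 litter. Leaving out 1 mouse at a time gave 0.10 to 1.01 at 100%, the lowest without the 100% mouse of day 22, and -1.14 to 0.13 at 1%, the lowest without the 1% mouse of day 18. Between 100% and 1% heptanal the log2 fold change was 1.17 (SE 0.50, edgeR adjusted p = 0.467), with 0.53 without the 1% mouse of day 22 and 1.88 without that of day 18. The library with the least Rtp1, 1% heptanal at day 22, held 86 counts of the gene.

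Reep1, at chr6:71707561-71810710 on the plus strand, was at 13.6, 66.7 and 23.1 CPM in the controls of days 22, 21 and 18. It was at 10.9, 38.7 and 30.7 CPM at 1% heptanal and at 32.2, 72.8 and 54.9 CPM at 100% heptanal. The 100% mouse was the highest of its litter on each day, and the groups overlapped because day 21 was high in all of them. The log2 fold change at 100% was 0.84 against control (SE 0.27, edgeR adjusted p = 0.326) and 1.10 against 1% heptanal (SE 0.27, edgeR adjusted p = 0.264, unadjusted p = 0.00317). The second difference passed with the likelihood ratio test (adjusted p = 0.0298) and with DESeq2 (adjusted p = 0.0329). Reep1 at 1% heptanal had a log2 fold change of -0.25 against control (SE 0.28, edgeR adjusted p = 1.0), which turned to 0.13 without the day 21 control.

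The share of Rtp1 among the counts of Rtp1 and Rtp2 together compares both genes inside each library and does not depend on scaling. On day 22 it was 25.9% in the control (95% exact binomial interval 23.6 to 28.4, counting error only), 8.96% at 1% heptanal (7.23 to 10.9) and 25.3% at 100% heptanal (24.0 to 26.6). On day 21 the shares were 60.5%, 48.5% and 55.3%, and on day 18 they were 56.4%, 57.3% and 59.7% in the same order of groups. All 3 mice of day 22 lay below all 6 mice of the other days. The 1% mouse of day 22 was the lowest of the 9. Reads without molecular identifiers were amplified by PCR, so these intervals understate the error between libraries, and with primers at the poly(A) end the share reflects the captured ends of the transcripts and not their full length. At most 0.162% of Rtp1 and 0.143% of Rtp2 reads in any mouse were assigned by the rescue of reads that map to several genes.

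**Figure D2:**
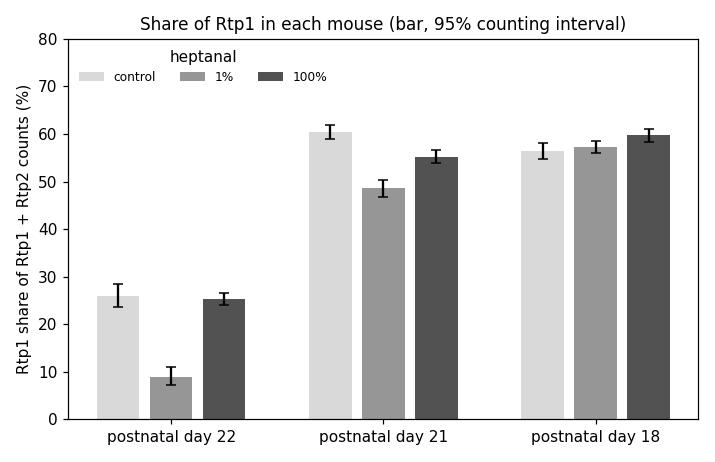
Share of Rtp1 in the summed counts of Rtp1 and Rtp2 (%, vertical axis from 0) in each mouse, grouped by postnatal day and shaded by heptanal concentration. Error bars are 95% exact binomial intervals for counting error only. The 3 day 22 mice sit between 8.96% and 25.9%, below the 6 others.

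Postnatal day was tested in the same fit with an F test over both day terms. Of the 9 genes, 2 were called (27.0% of all genes were), and these were Reep1 (edgeR adjusted p = 0.00692) and Rtp1 (edgeR adjusted p = 0.0124). Rtp1 averaged 61.9 ± 53.6 CPM on day 22, 325 ± 84.8 on day 21 and 308 ± 76.2 on day 18 (SD, n = 3, 1 mouse per odour group). Reep1 averaged 18.9 ± 11.6, 59.4 ± 18.2 and 36.2 ± 16.6 CPM on the same days (SD, n = 3). Rtp2 did not pass, with means of 212 ± 122, 265 ± 50.2 and 223 ± 45.2 CPM (edgeR adjusted p = 0.406). Ldb1 averaged 10.8 ± 0.51 CPM on day 22 and 19.2 ± 2.56 and 17.9 ± 2.46 on days 21 and 18, with an edgeR adjusted p of 0.0523. It passed with the likelihood ratio test (adjusted p = 0.0230) and with uniquely mapped counts (edgeR adjusted p = 0.0481), which made 3 of 9 genes. The share of genes called by day is high in these libraries, and 2 of 9 lies close to it. Without the day 22 control neither gene was called, the count over the 9 genes falling to 0.

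Of the 4 genes for OR transcription factors and their adaptor, 0 passed the test for heptanal with TMM scaling. Lhx2, which encodes a LIM-homeodomain factor required for OSN maturation and lies at chr2:38339281-38369733 on the plus strand, was at 406, 513 and 465 CPM in the controls of days 22, 21 and 18. It was at 428, 598 and 596 CPM at 1% heptanal and at 599, 554 and 537 CPM at 100% heptanal. Lhx2 was thus higher than the control littermate on each day at both concentrations, and the 1% and 100% groups overlapped. Its log2 fold change was 0.30 at 100% (SE 0.15, edgeR adjusted p = 0.540) and 0.22 at 1% (SE 0.15, edgeR adjusted p = 1.0). On days 21 and 18 the 1% mouse had the higher level of the exposed littermates.

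Ldb1, Ebf1 and Emx2 were measured with far fewer reads, from 73 to 356 counts in a mouse. Ldb1, at chr19:46031570-46045214 on the minus strand, was at 11.3, 20.5 and 15.1 CPM in controls, at 10.9, 20.8 and 19.9 CPM with 1% and at 10.3, 16.2 and 18.8 CPM at 100% heptanal on days 22, 21 and 18. Day 22 was the lowest in each group, and the log2 fold change at 100% was -0.05 (SE 0.23, edgeR adjusted p = 0.965). Ldb1 shares 177 exonic bases with Pprc1 on the opposite strand, so that reads there cannot be told apart.

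Ebf1, which encodes an early B cell factor also used by OSNs and lies at chr11:44617317-45008091 on the plus strand, was at 14.4, 25.9 and 15.8 CPM in controls on days 22, 21 and 18. It was at 19.3, 17.2 and 24.6 CPM at 1% and at 13.7, 17.8 and 24.3 CPM at 100% heptanal. Its direction differed between litters at both concentrations, and the log2 fold change at 100% was -0.02 (SE 0.29, edgeR adjusted p = 0.991).

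Emx2 encodes a homeodomain factor needed for the expression of many OR genes and lies at chr19:59458372-59465357 on the plus strand. It was at 25.5, 24.9 and 23.7 CPM in the controls of days 22, 21 and 18, a narrow range. It was at 16.3, 17.5 and 35.0 CPM with 1% and at 13.6, 19.5 and 27.1 CPM at 100% heptanal. The exposed mice of days 22 and 21 lay below the controls and those of day 18 above them, and the log2 fold change at 100% was -0.38 (SE 0.27, edgeR adjusted p = 0.682). Emx2 shares 264 exonic bases with its antisense RNA Emx2os, whose mean was 22.0 ± 10.9 CPM with water and 33.9 ± 13.2 CPM with 100% heptanal (SD, n = 3). The log2 fold change of Emx2os was 0.66 (edgeR adjusted p = 0.387), opposite in sign to that of Emx2, and reads of the shared bases cannot be told apart without strand.

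Kdm1a, at chr4:136550540-136602723 on the minus strand, was at 101, 72.8 and 64.7 CPM in the controls of days 22, 21 and 18. It was at 83.2, 76.0 and 88.3 CPM at 1% and at 88.8, 61.3 and 54.8 CPM at 100% heptanal. The 100% mouse was below its control littermate on all 3 days, by 0.18, 0.25 and 0.24 on the log2 scale, which is less than the spread between litters. The fitted log2 fold change was -0.22 (SE 0.18, edgeR adjusted p = 0.716).

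**Figure D3:**
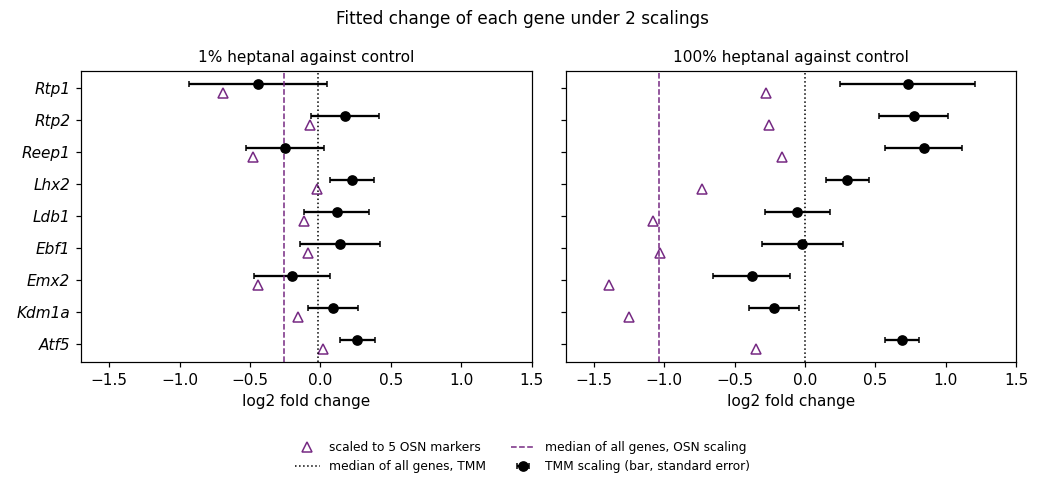
Fitted log2 fold change of the 9 genes (horizontal axis) at 1% and 100% heptanal against control. Black points and bars are the estimates and standard errors with TMM scaling, open triangles the estimates with libraries scaled to 5 mature OSN markers, and vertical lines the median of all genes under each scaling. At 100% heptanal Rtp1, Rtp2, Reep1, Lhx2 and Atf5 are above 0 with TMM and below 0 with OSN scaling.

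The level of mature OSN transcripts differed between the groups in the same libraries. The 9 mature OSN markers summed to between 4751 and 9885 CPM in controls, between 6974 and 9631 with 1% and between 11875 and 16971 with 100% heptanal, with none of the 9 at 0 in any mouse. At 100% heptanal 9 of 9 had a log2 fold change above 0, with a median of 0.79 against -0.00 for all genes. Omp (1.11, edgeR adjusted p = 0.0311), Gng13 (1.41, edgeR adjusted p = 0.0230) and Stoml3 (1.22, edgeR adjusted p = 0.0231) rose, so that 3 of 9 were called. At 1% heptanal 0 of 9 were called and their median was 0.05. The 6 immature OSN markers had a median of 0.44 at 1% heptanal, with 6 of 6 above 0 and 0 called, and their summed level was higher than in the control littermate on all 3 days, as were the levels of Lhx2 and Atf5. At 100% heptanal 5 of the 6 markers were above 0, with a median of 0.20. Their summed level was then 1669, 1528 and 1733 CPM on days 22, 21 and 18. The control littermates had 1393, 1618 and 1751 CPM, so it was higher on day 22 only. The part of the immature OSN markers in the levels of Lhx2 and Atf5 at 1% was not tested. Markers of sustentacular cells, the supporting cells of the OE, had a median of 0.65 at 100% with 0 of 6 called, and their summed level was 3685 to 4770 CPM in controls and 5817 to 7596 at 100%. At 100% the 6 markers of globose basal cells and progenitors had a median of -0.45 and the 4 erythroid markers a median of -0.73. The 5 markers of olfactory ensheathing glia had a median of -0.35 and the 3 of Bowman gland a median of -0.24. Each of these lists had 0 called and 0 above 0.

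Scaled to the summed counts of 5 mature OSN markers (Omp, Adcy3, Ano2, Cnga2 and Gnal), the genes that were higher at 100% heptanal changed sign. Under this scaling the median log2 fold change of all genes moved to -1.04 at 100% heptanal and to -0.26 at 1%. Atf5 had a log2 fold change of -0.35, Rtp1 of -0.28, Rtp2 of -0.26, Reep1 of -0.16 and Lhx2 of -0.73, each above the median of all genes by 0.30 or more. Ldb1 (-1.08), Ebf1 (-1.03), Emx2 (-1.40) and Kdm1a (-1.25) lay near or below that median. With edgeR, 5 of 9 genes were then called lower, Lhx2 and these 4, as were 9694 of all 14930 genes. Reep1 per 1000 marker counts was 2.32, 7.67 and 5.46 in the controls of days 22, 21 and 18 and 2.74, 4.90 and 5.21 at 100% heptanal, with overlap between the groups. Lhx2 was at 69.3, 59.0 and 109.9 per 1000 marker counts in controls and at 51.0, 37.3 and 50.9 at 100%. None of the latter reached the lowest control, which also held for Ldb1, Ebf1, Emx2 and Kdm1a. The share of all genes without overlap under this scaling was not computed, so these gaps are not read as particular to the 5 genes. The part of the mature OSN level in the levels of Atf5, Rtp1, Rtp2, Reep1 and Lhx2 was not tested.

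**Figure D4:**
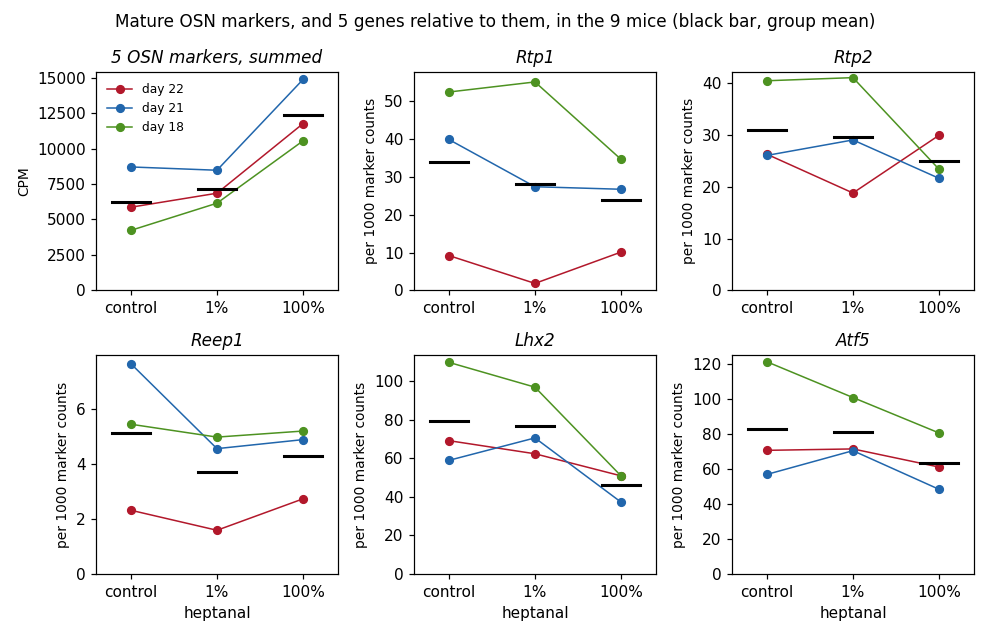
Summed CPM of 5 mature OSN markers (first panel) and the level of 5 genes per 1000 counts of those markers (other panels) in control, 1% and 100% heptanal mice, from 0 on the vertical axes. Lines join littermates and black bars are group means. The summed markers were higher at 100% heptanal on each day, and Lhx2 and Atf5 relative to them were lowest at 100% on each day. With libraries scaled to these markers, the median log2 fold change of all genes at 100% heptanal was -1.04.

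Related genes were read from lists around each role. Of the RTP and REEP families, 9 of 10 genes were tested and 0 passed at either concentration or between them, with a median log2 fold change of 0.30 at 100% heptanal against -0.00 for all genes and 5 of 9 above 0. The family did not move one way. Reep5, which shapes the endoplasmic reticulum and was picked here after its values were seen, averaged 189 ± 84.4 CPM with water and 126 ± 26.0 CPM with 100% heptanal (SD, n = 3), a log2 fold change of -0.52 (SE 0.17, edgeR adjusted p = 0.346). Of 16 OR choice transcription factors and partners 0 passed, 8 were above 0 and the median was 0.00 at 100%. Besides Lhx2 the best measured of them was Ebf3, an EBF family member, with a log2 fold change of 0.31 (SE 0.34, edgeR adjusted p = 0.808).

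Of 18 genes of heterochromatin and the LSD1 complex 0 passed, 4 were above 0 and the median was -0.10 at 100% heptanal. The best measured were the DNA methyltransferase Dnmt3a (log2 fold change -0.16, edgeR adjusted p = 0.743) and the H3K9 methyltransferase Ehmt2 (-0.20, edgeR adjusted p = 0.731). Ehmt1, the partner of Ehmt2, was picked after its values were seen and averaged 77.0 ± 23.9 CPM with water and 52.9 ± 17.4 CPM with 100% heptanal (SD, n = 3), a log2 fold change of -0.55 (SE 0.14, edgeR adjusted p = 0.193). Of 13 genes of the PERK and Atf5 feedback arm 0 passed, 5 were above 0 and the median was -0.14. Atf4, a relative of Atf5 translated under the same control, averaged 1566 ± 643 CPM with water and 1607 ± 474 CPM with 100% heptanal (SD, n = 3), with a log2 fold change of 0.07 (SE 0.18, edgeR adjusted p = 0.938). Eif2s1, which encodes the PERK substrate and was picked after its values were seen, had a log2 fold change of -0.58 (SE 0.15, edgeR adjusted p = 0.215).

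The lists had 0 genes called at 1% heptanal, including 0 of 7 activity genes, immediate early genes that neurons transcribe after stimulation. At 100% heptanal 4 of 7 activity genes rose, namely Fosb (log2 fold change 4.98, edgeR adjusted p = 0.00136), Egr1 (2.98, edgeR adjusted p = 0.00136), Fos (2.72, edgeR adjusted p = 0.00681) and Nr4a1 (2.18, edgeR adjusted p = 0.00695). Each of these log2 fold changes was larger than that of any of the 9 regulators.

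**Figure D5:**
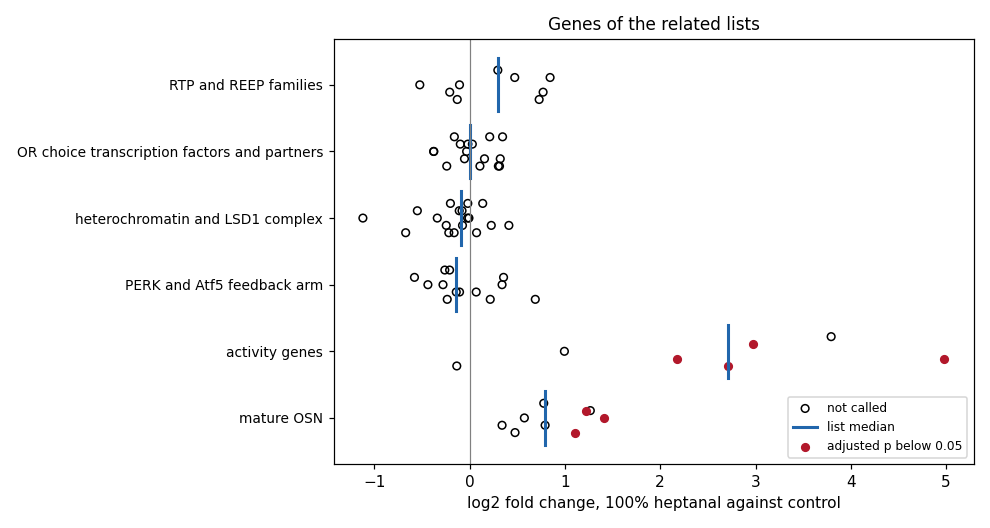
Log2 fold change at 100% heptanal against control with TMM scaling (horizontal axis) for each tested gene of 5 lists and of the mature OSN markers. Red points have an edgeR adjusted p below 0.05, open points do not, and blue bars are list medians. Called genes are found among the activity genes (4 of 7) and the mature OSN markers (3 of 9).

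By day, 3 of 9 RTP and REEP genes (Rtp1, Reep1 and Reep5), 3 of 16 transcription factors (Ebf2, Ebf4 and Nfix), 7 of 18 heterochromatin genes and 4 of 13 genes of the feedback arm (Atf4, Eif2s1, Hspa5 and Adcy3) were called. The share of all genes called by day was 27.0%. Ebf2 had an edgeR adjusted p of 0.00147 for day, whereas Ebf1 had 0.410.

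The genes with the pattern most like each regulator were sought by Pearson's correlation of log2 CPM over the 9 mice after subtraction of each day's mean, among 10166 genes with a mean of at least 10 CPM. The values describe these libraries, and each r is the highest or second highest of that many correlations. Atf5 was most like Jakmip1 (r = 0.997) and Nrn1l (r = 0.995). Rtp1 was most like Gabrp (r = 0.99) and the OR gene Olfr48 (r = 0.99), Rtp2 like Sgip1 (r = 0.99) and Dynlt1a (r = 0.99), and Reep1 like Lmbrd1 (r = 0.99) and Bcl11a (r = 0.98). Lhx2 was most like Bex2 (r = 0.99) and Gm5617 (r = 0.97), and Kdm1a like Arhgdib (r = 0.97) and Bpifb3 (r = 0.97). The 3 genes with few reads had Ganc (r = 0.98) and Sppl2b (r = 0.95) for Ebf1, 9030624J02Rik (r = 0.97) and Ddx42 (r = 0.97) for Emx2, and Erdr1 (r = 0.94) and Fkbp5 (r = 0.94) for Ldb1. No gene appeared for more than 1 regulator.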

How the data were processed

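The authors used Bowtie for alignment to mm10 and BEDTools for counting per gene, with 1 deposited table per mouse, and versions are not given in the sources used here. The tables have no header. Column 21 was read as estimated counts, which the authors made by sharing reads that map to several genes, and column 2 as deposited counts of uniquely mapped reads. The rescued share was 23.9 to 30.5% of all counts. Estimated counts were rounded, filtered with filterByExpr (14930 of 23607 genes) and tested with edgeR 4.0.16 in R 4.3.3 (TMM, glmQLFit, glmQLFTest, Benjamini-Hochberg adjustment over all genes tested) with postnatal day as a block. The script was tested on simulated data. Deviations of same-day mice from their group means correlated with a mean r of 0.54 (9 pairs, lowest 0.16). Pairs from other days had a mean r of -0.25 (18 pairs, highest 0.45). Deviations in a group sum to 0 over the days, so the negative mean follows in part from the positive one. The same-day values with the shared litter gave the pairing. Mice of a group differed by more than sampling noise (chi-square per degree of freedom 31.7 to 118). DESeq2 1.42.0 was an alternative. A floor of 3 counts was 0.309 to 0.552 CPM. Coordinates and exon overlaps are from GENCODE for GRCm38, and promoter windows from RefSeq (8 of 9 genes matched, all but Rtp1). Plots were drawn with matplotlib 3.10.9.

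The 9 genes and all lists were chosen with earlier results of these data known. Named by rule are the 9 genes and the 2 most alike genes for each regulator. From the lists, the rule names members past the threshold (at most 5 per list and comparison) or the 2 best measured. Outside this rule, Reep5, Ehmt1 and Eif2s1 were picked after their values were seen. Emx2os and other overlapping genes, mature OSN markers and some list members called by day are also named.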

Additional observations from a re-analysis of the deposited data

Results flagged for a closer look

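Against control, 3 genes lay on opposite sides of 0 in different litters by more than 0.5 on the log2 scale each way, with 1 mouse per group and day, so that the difference between litters was not tested. Rtp1 at 1% heptanal against control was at -2.09 on day 22, -0.58 on day 21 and 0.61 on day 18, a span of 2.70. Emx2 at 1% heptanal was at -0.64, -0.51 and 0.56 on the same days, a span of 1.20. Ebf1 was at 0.42, -0.59 and 0.64 at 1% heptanal, a span of 1.23, and at -0.07, -0.54 and 0.63 at 100% heptanal, a span of 1.17. For Ebf1 day 21 was the lower one at both concentrations, and both use the same control mouse, which had the highest Ebf1 of the 9.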

How the results depend on the processing

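Alternatives were fitted for the 27 differences of 9 genes in 3 comparisons, and 463 of 513 values kept their direction and side of the threshold. The number of the 9 genes called at 100% heptanal against control went from 0 to 1 with the likelihood ratio test, 1 with DESeq2 and 5 with OSN scaling, and between 100% and 1% heptanal likewise to 1, 1 and 5. By day it went from 2 to 6 with OSN scaling, to 3 with the likelihood ratio test and to 3 with uniquely mapped counts (Ldb1 added), and from 0 to 2 when 1 mouse was left out at a time. Without the replicate block, the pairing by day dropped, 0, 0 and 0 of the 9 genes were called, as with it, and 2 genes in all at 100% against control and 2 between concentrations in place of 48 and 12. All genes called at 1%, at 100% and between concentrations were 14, 297 and 226 with the likelihood ratio test, 3, 266 and 211 with DESeq2, 0, 9742 and 6691 with OSN scaling, 1, 76 and 25 with no filter, and 0, 28 and 11 with library totals alone. Without 1 mouse they were 1 to 65 at 100% (1 without the day 22 control) and 3 to 33 between concentrations (3 without the day 21 mouse at 100%). Without postnatal day 22, an alternative chosen after seeing the data, they were 8 and 4. The cause of these differences was not tested.

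With OSN scaling, directions turned at 1% heptanal for Rtp2 (-0.073), Lhx2 (-0.022), Ldb1 (-0.12), Ebf1 (-0.087) and Kdm1a (-0.16), at 100% for Rtp1 (-0.28), Rtp2 (-0.26), Reep1 (-0.16), Lhx2 (-0.73) and Atf5 (-0.35), and between concentrations for Rtp2 (-0.18), Lhx2 (-0.71) and Atf5 (-0.37). Without day 22 they turned at 1% for Rtp1 (0.013), Ebf1 (-0.014) and Emx2 (0.034), and between concentrations for Lhx2 (-0.13) and Ebf1 (0.0080). Without 1 mouse, the ranges that crossed 0 at 1% heptanal were -1.14 to 0.13 for Rtp1, -0.11 to 0.45 for Rtp2, -0.51 to 0.13 for Reep1, -0.038 to 0.22 for Ldb1, -0.13 to 0.48 for Ebf1, -0.52 to 0.059 for Emx2 and -0.11 to 0.27 for Kdm1a. At 100% they were -0.21 to 0.054 for Ldb1 and -0.29 to 0.34 for Ebf1, and between concentrations -0.10 to 0.18 for Lhx2, -0.37 to 0.0064 for Ebf1 and -0.32 to 0.10 for Emx2. Atf5 at 100% stayed between 0.63 and 0.76 without 1 mouse. Counts were lowest, under 100 in a mouse, for Rtp1, Reep1, Ldb1 and Ebf1, and the standard error was largest for Rtp1 in each comparison.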
